A study of Homo sapiens with 5 samples.

Results

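Excision and end-joining repair of DNA was followed through 8 genes, ERCC1, ERCC2, DDB2, RPA3, LIG3, LIG4, XRCC6 and PRKDC, in the human melanoma cell line SK-MEL28. They were taken as all probes whose annotated gene is one of these symbols. Each gene had 1 probe, so the 8 genes are 8 of the 3048 probes and 8 of the 2078 named genes on the array. RNA of treated cells, dyed with Cy5, was hybridised together with RNA of untreated cells, dyed with Cy3, on 5 spotted oligonucleotide arrays. On 3 arrays the treated cells had received cisplatin, a platinum drug that binds DNA. On the other 2 arrays they had received cisplatin and electroporation, in which electric pulses open the cell membrane so that more drug enters the cell. The pulses were 8 in number, each 100 µs long at 1300 V/cm and 1 Hz. All samples are of the same established line, and by the labels they differ only in the treatment of the Cy5 RNA. No transgene or deletion is named in the labels. The labels of these samples state neither the cisplatin dose nor the time at which RNA was taken. They also do not say whether replicate arrays hold RNA of separate cultures, and p-values then cover only array-to-array spread, which could be technical. Electroporation without drug was not analysed here, so cisplatin uptake and the pulses themselves cannot be told apart in the second group.

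Cisplatin joins neighbouring bases of a DNA strand, and also opposite strands, into adducts that block copying and transcription. Nucleotide excision repair removes such adducts: the lesion is recognised, a helicase opens the strands around it, endonucleases cut on either side, and the gap is filled and sealed. Single-strand breaks are sealed in a related pathway by a ligase that works with a scaffold protein. Broken DNA ends, which arise when a fork meets an adduct or when crosslinks are unhooked, can be rejoined directly by non-homologous end joining, in which ends are captured, held by a kinase and ligated. RNA levels are only 1 layer of this machinery, since many of its proteins are controlled by recruitment and modification.

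All values are log2 ratios of treated over untreated RNA after background correction and normalization within the array, so a value below 0 is a lower level in treated cells. A probe was taken as above background in a channel when at least 0.5 of its spots exceeded their local background by 2 standard deviations. Between 1535 and 1843 probes passed this in untreated RNA on an array. By that measure 6 of the 8 genes were above background on all 5 arrays in the untreated channel, and ERCC1 and DDB2 were above background on no array in either channel. The 6 measured melanocyte markers were all above background in the untreated RNA of every array, and so were 11 of the 15 measured markers of leukocytes, endothelium, epithelium and fibroblasts, so the presence of a signal is not specific to the labelled cell type. Cultures were measured as a whole, so a change in all cells and a change in a fraction of them cannot be told apart. On the second electroporation array, 25.5% of the 1766 probes with 4 spots above background had a last listed spot below 0.5 times the geometric mean of the other 3 in untreated RNA, against 0.726% to 3.54% on the other arrays. Values without that spot are given where it moves a result.

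RPA3 had raw untreated intensities of 161, 162 and 125 on the cisplatin arrays and 156 and 173 on the electroporation arrays. Its treated intensities were 99.8, 125 and 148 with cisplatin, and 72.0 and 69.5 with cisplatin and electroporation. The raw treated signal of RPA3 was weaker on both electroporation arrays than on any cisplatin array. The treated channel as a whole was also dimmer there, with median log2 ratios of all probes before normalization of -0.14 and -0.28, against -0.091, -0.0027 and 0.0055 on the cisplatin arrays. XRCC6 had the same raw pattern, with treated intensities of 34.8, 39.5 and 41.0 against 29.5 and 31.8, so the raw order alone shows no difference. Untreated signal over local background was 9.43 to 14.6 for RPA3, 10.5 to 16.3 for LIG4 and 6.78 to 10.1 for ERCC2. It was 3.62 to 4.71 for PRKDC, 3.03 to 4.78 for XRCC6 and 2.31 to 4.89 for LIG3. These are properties of the probes and give no order of RNA levels between genes. In the treated channel ERCC2, RPA3 and LIG4 were above background on all 5 arrays, PRKDC on 4, XRCC6 on 3 and LIG3 on 1.

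**Figure D1:**
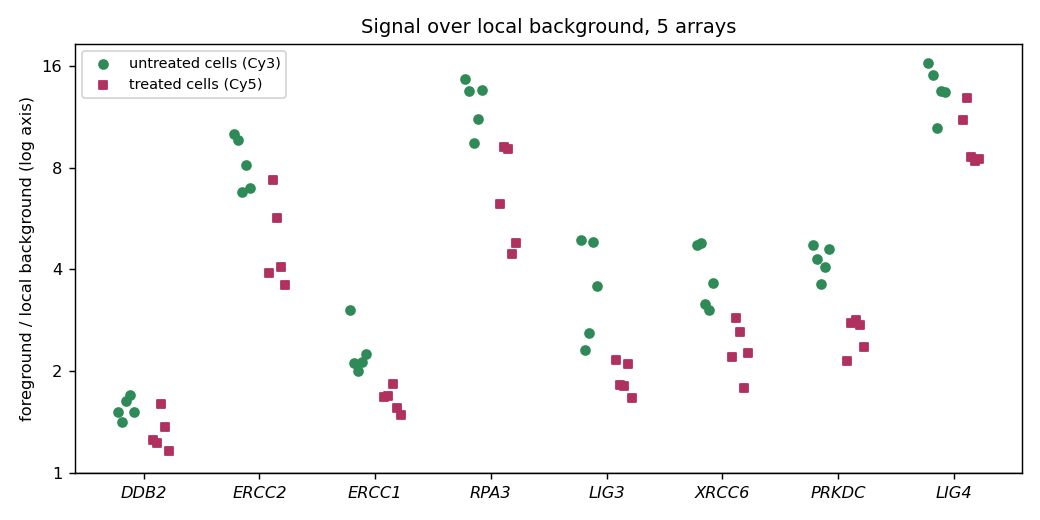
Raw foreground intensity divided by local background (log axis) for the 8 probes on 5 arrays, with untreated RNA as circles and treated RNA as squares. DDB2 and ERCC1 lie closest to 1, with untreated signals of 1.41 to 1.70 and 2.00 to 3.03 times the local background, and RPA3, LIG4 and ERCC2 stand well clear of it.

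Promoter sequences are shown for LIG3, XRCC6 and ERCC2, whose ratios lay below 0 on every cisplatin array and which stood above background, and for LIG4, whose mean ratio lay above 0. RefSeq promoter records (GRCh38.p14) matched 6 of the 8 genes, all but RPA3 and PRKDC. Each line gives the 250 bases before the transcription start, 5′ to 3′ on the gene's strand, for LIG3 at chr17:34980262-34980511 (plus strand), XRCC6 at chr22:41621045-41621294 (plus strand), ERCC2 at chr19:45370574-45370823 (minus strand) and LIG4 at chr13:108218350-108218599 (minus strand, the first of 5 listed starts). Capitals mark the GC box GGGCGG, the CCAAT box CCAAT and the E-box CACGTG, each searched on both strands.
LIG3 promoter: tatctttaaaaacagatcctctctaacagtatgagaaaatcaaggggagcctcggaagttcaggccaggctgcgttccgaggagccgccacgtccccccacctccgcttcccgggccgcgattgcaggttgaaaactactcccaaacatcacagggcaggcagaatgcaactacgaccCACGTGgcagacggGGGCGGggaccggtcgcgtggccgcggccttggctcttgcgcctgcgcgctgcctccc
XRCC6 promoter: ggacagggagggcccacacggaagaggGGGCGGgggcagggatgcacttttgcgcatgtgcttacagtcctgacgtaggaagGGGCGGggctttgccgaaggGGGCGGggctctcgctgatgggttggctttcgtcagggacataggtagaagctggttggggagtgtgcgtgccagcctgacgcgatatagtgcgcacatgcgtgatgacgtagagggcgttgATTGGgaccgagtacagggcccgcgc
ERCC2 promoter: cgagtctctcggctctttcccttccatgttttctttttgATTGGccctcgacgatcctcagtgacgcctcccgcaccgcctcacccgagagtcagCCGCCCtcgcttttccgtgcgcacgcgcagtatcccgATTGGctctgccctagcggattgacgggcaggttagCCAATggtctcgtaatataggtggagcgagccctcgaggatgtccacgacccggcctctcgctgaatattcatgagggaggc
LIG4 promoter: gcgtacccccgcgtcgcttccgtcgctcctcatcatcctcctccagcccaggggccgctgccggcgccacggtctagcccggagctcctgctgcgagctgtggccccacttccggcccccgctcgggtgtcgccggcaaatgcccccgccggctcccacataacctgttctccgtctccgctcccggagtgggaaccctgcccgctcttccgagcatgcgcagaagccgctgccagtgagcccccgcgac
The LIG3 window holds 1 GC box and 1 E-box, the XRCC6 window 3 GC boxes and 1 CCAAT box, and the ERCC2 window 1 GC box and 3 CCAAT boxes. None of these letters occur in the LIG4 window, which has a GC content of 72.0% against 59.6% to 63.6% in the windows of LIG3, XRCC6 and ERCC2. Of all 35116 promoter windows of this length, 42.64% hold a GC box, 32.01% a CCAAT box and 6.345% an E-box. These matches describe the sequences and bear on no ratio below.

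With cisplatin alone, none of the 8 genes passed the test over all probes (limma, Benjamini-Hochberg adjusted p under 0.05), where the share of all probes called was 0%. The mean ratio was below 0 for 6 genes, among them ERCC1, and above 0 for 2, among them DDB2, and the median of the 8 was -0.080 against -0.0014 over all probes. On every cisplatin array, 5 of the 8 genes lay below 0 (ERCC1, ERCC2, LIG3, XRCC6 and PRKDC), although the sign of ERCC1, with no signal above background, carries no information, against 18.3% of all probes, and no gene lay above 0 on all of them, against 16.5%. LIG3, XRCC6 and PRKDC, or 3 of 8, had an unadjusted limma p under 0.05, all of them lower in treated cells, against 6.1% of all probes lower and 11.1% in both directions. The count was 0 without the first cisplatin array, with plain background subtraction, over probes above background only and with trended robust variance. It was 1 without the second cisplatin array, with no offset in the background correction and with median centring, and 2 without background correction. The median of the 8 was -0.049 without the first array and -0.045 without the second. LIG3, XRCC6 and PRKDC had means between -0.12 and -0.11, a size that depends on the offset of 50 added in the background correction, which draws ratios of dim probes toward 0. With no offset they were -0.31, -0.28 and -0.28, and with plain subtraction -0.34, -0.34 and -0.37. Their SEs grew as well, from 0.037, 0.046 and 0.042 to 0.13 for each with no offset and 0.16 to 0.19 with plain subtraction. No fold is given, since the treated signal of LIG3 was above background on 1 of the 3 cisplatin arrays and those of XRCC6 and PRKDC on 2. No dyes were exchanged on any array, so a dye preference of a probe cannot be told apart from a ratio to untreated cells.

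With cisplatin and electroporation, again none of the 8 genes passed the test, as for 0% of all probes. RPA3 and LIG3, 2 of 8, had an unadjusted limma p under 0.05, both lower in treated cells, against 6.99% of all probes lower and 9.97% in both directions. With either electroporation array left out, 1 of 8 did. The same 2 genes lay below 0 on both electroporation arrays, which 30.3% of all probes did, and LIG4 alone lay above 0 on both, as did 23% of all probes. The median of the 8 genes was -0.025 against -0.0066 over all probes. RPA3 had the lowest mean ratio of the 8, at -0.37.

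**Figure D2:**
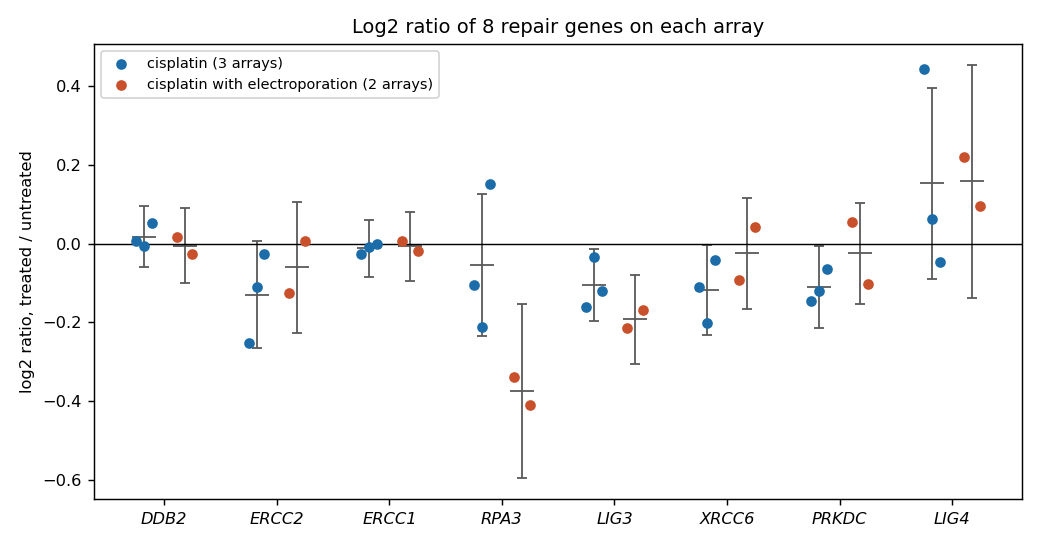
Log2 ratio of treated over untreated RNA for the 8 genes, with 1 point per array and the group mean with its 95% confidence interval from the limma fit. RPA3 is lower on both electroporation arrays (-0.34 and -0.41) than on the 3 cisplatin arrays (-0.21 to 0.15), and the groups overlap for ERCC1, ERCC2, DDB2, LIG4, XRCC6 and PRKDC.

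Lesion recognition is represented by DDB2, a subunit of the complex that finds ultraviolet photoproducts in chromatin and a known target of p53. Its ratios were 0.0058, -0.0069 and 0.053 on the cisplatin arrays and 0.016 and -0.028 on the electroporation arrays. Values of both signs occurred in each group, and the treated signal was only 1.16 to 1.60 times the local background. As its probe was not above background in either channel, no fold is given for DDB2.

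The opening step is represented by ERCC2, the XPD helicase of the transcription factor TFIIH. The log2 ratio of ERCC2 was -0.25, -0.11 and -0.025 with cisplatin, and -0.13 and 0.0056 with cisplatin and electroporation. It lay below 0 on all 3 cisplatin arrays, furthest on the first, and on 1 of the 2 electroporation arrays. The means were -0.13 (SE 0.054, n = 3, limma adjusted p = 0.475) and -0.060 (SE 0.066, n = 2, adjusted p = 0.824). Single spots were below 0 for 9 of 12 on the cisplatin arrays and 6 of 8 on the electroporation arrays. On the second electroporation array the spots were -0.15, 0.39, -0.26 and 0.043. The spot at 0.39 had a Cy5 local background SD of 33.5, against 4.61 to 6.83 for the others. Without the last spot that array gave -0.0069, so its sign depends on single spots. Leaving out the first cisplatin array brought the cisplatin mean to -0.068. The electroporation mean also moved with the processing. It was -0.26 with median centring and -0.25 with the authors' values, which were -0.197 and -0.299 on the 2 arrays, and -0.015 with plain subtraction.

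The cutting step is represented by ERCC1, which with its partner ERCC4 (XPF) forms the nuclease that cuts on the 5′ side of the lesion and also acts on crosslinks. ERCC1 RNA has been studied widely as a correlate of the response to platinum drugs. Here its ratios were -0.026, -0.0088 and -0.0012 with cisplatin, and 0.0059 and -0.020 with cisplatin and electroporation. The values are all within 0.03 of 0, and the offset of the background correction draws ratios of dim probes toward 0. Raw untreated intensities of ERCC1 were 23.8 to 29.8 over local backgrounds that gave a ratio of 2.00 to 3.03, and the treated signal was 1.48 to 1.83 times the local background. As for DDB2, ERCC1 has no measured level above background on these arrays, and the array does not show whether its RNA differed.

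Protection of the opened strand is represented by RPA3, the smallest subunit of replication protein A, which coats single-stranded DNA in excision repair, replication and checkpoint signalling. The log2 ratio of RPA3 was -0.10, -0.21 and 0.15 on the cisplatin arrays. On the electroporation arrays it was -0.34 and -0.41. The 2 electroporation arrays were both lower than every cisplatin array, and the cisplatin arrays themselves had both signs. The cisplatin mean was -0.055 (SE 0.072, n = 3, limma adjusted p = 0.873). With electroporation the mean was -0.37 (95% confidence interval -0.60 to -0.15, SE 0.088, n = 2), a level 0.771 times that of untreated cells, with a limma adjusted p of 0.339. The size of this ratio depends on the processing. It was -0.56 with no offset, -0.58 with plain subtraction and -0.66 with median centring, and -0.27 with the replicate block. All 8 single spots of the electroporation arrays were below 0, from -0.46 to -0.23, against 8 of 12 on the cisplatin arrays, from -0.32 to 0.43. Spots of 1 array share its RNA and are not replicates. Without the last spot, the second electroporation array gave -0.39.

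In the authors' deposited table RPA3 had log2 ratios of -0.142, -0.274 and 0.198 with cisplatin and -0.482 and -0.552 with electroporation. These come from the same arrays, normalized by the authors, and have the same order as the values above. RPA2, the middle subunit of the same protein, was also on the array. Its ratios were 0.14, 0.11 and 0.059 with cisplatin and 0.17 and 0.049 with electroporation, so it lay above 0 on all 5 arrays. The RPA2 mean with electroporation was 0.11 (SE 0.047, n = 2, limma adjusted p = 0.505) and turned to -0.023 with median centring. RPA2 was set beside RPA3 after its values were seen, and the difference between the subunits was not tested.

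**Figure D3:**
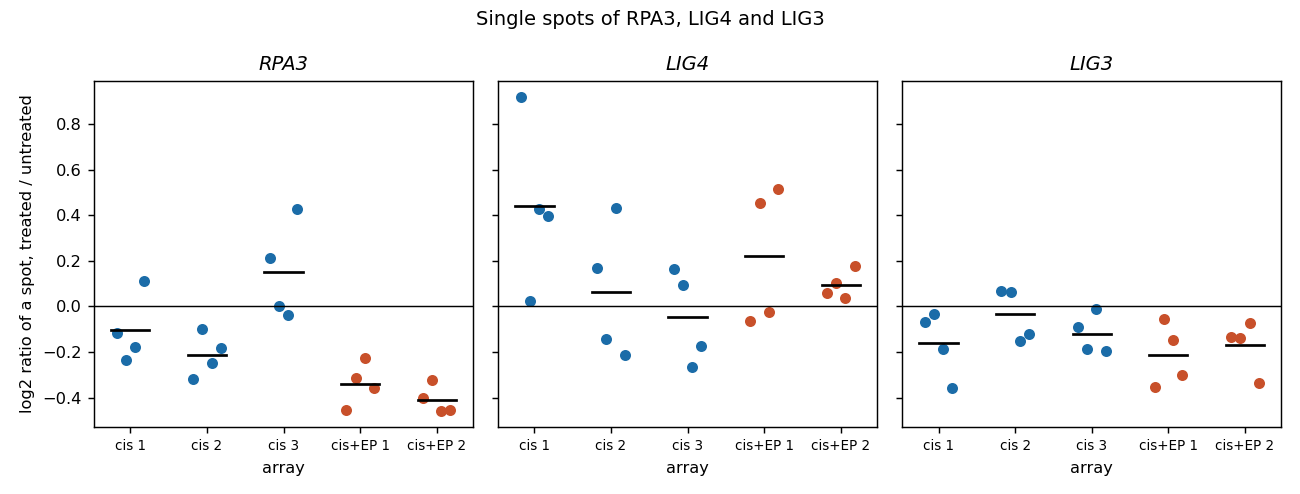
Log2 ratio of each of the 4 spots of RPA3, LIG4 and LIG3 on the 5 arrays, with the mean of the spots as a black line (cis, cisplatin; EP, electroporation). All 8 RPA3 spots and all 8 LIG3 spots on the electroporation arrays lie below 0, and the spots of LIG4 on the first cisplatin array range from 0.025 to 0.92.

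Sealing of single-strand breaks is represented by LIG3, the DNA ligase that works with the scaffold XRCC1 and is also the ligase of mitochondria. LIG3 ratios were -0.16, -0.035 and -0.12 with cisplatin, and -0.21 and -0.17 with cisplatin and electroporation. LIG3 was the only 1 of the 8 genes below 0 on all 5 arrays, which held for 9.42% of all probes, and none was above 0 on all 5, against 6.66%. The cisplatin mean was -0.11 (SE 0.037, n = 3, limma adjusted p = 0.416). On both electroporation arrays the treated signal was not well above background, so no exact fold is given for LIG3. The measured log2 intensity means were 6.26 in treated and 6.45 in untreated RNA, a log2 ratio of -0.19 (95% confidence interval -0.30 to -0.079, SE 0.045, n = 2, limma adjusted p = 0.339). It was -0.16 without last spots on the second array, -0.15 with the first 3 spots of each probe, -0.53 with no offset and -0.68 with plain subtraction. All 8 spots of these arrays were below 0, from -0.35 to -0.056. Untreated intensities of LIG3 ranged from 28.3 to 66.5 over the 5 arrays. Without its last spot the second electroporation array gave -0.11.

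End capture is represented by XRCC6, the Ku70 subunit of the ring that binds broken ends. XRCC6 ratios were -0.11, -0.20 and -0.043 with cisplatin and -0.092 and 0.043 with cisplatin and electroporation. The 3 cisplatin arrays were all below 0, and the electroporation arrays lay on either side. The means were -0.12 (SE 0.046, n = 3, limma adjusted p = 0.436) and -0.025 (SE 0.056, n = 2, adjusted p = 0.923). Treated XRCC6 RNA was above background on 2 of the 3 cisplatin arrays and on the second electroporation array. That last array gave 0.0100 without its last spot.

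PRKDC, the catalytic subunit of the DNA-dependent protein kinase that Ku recruits to ends, had a like set of values. They were -0.15, -0.12 and -0.065 with cisplatin, and 0.054 and -0.10 with cisplatin and electroporation. Again every cisplatin array was below 0 and the electroporation arrays had both signs. The cisplatin mean was -0.11 (SE 0.042, n = 3, limma adjusted p = 0.428) and the electroporation mean -0.025 (SE 0.051, n = 2, adjusted p = 0.915). Of the 12 cisplatin spots, 9 were below 0 for PRKDC, as for XRCC6.

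Final ligation in end joining is represented by LIG4, the ligase that works with XRCC4. LIG4 ratios were 0.44, 0.061 and -0.046 with cisplatin and 0.22 and 0.095 with cisplatin and electroporation. LIG4 was the gene with the highest mean ratio of the 8 in both groups, and 4 of its 5 arrays were above 0. The means were 0.15 (SE 0.097, n = 3, limma adjusted p = 0.653) and 0.16 (SE 0.118, n = 2, adjusted p = 0.726). The first cisplatin array carries the cisplatin mean, which was 0.0076 without it. On that array the 4 spots ranged from 0.025 to 0.92. The raw LIG4 intensities there were 187 in untreated and 188 in treated RNA, and the median log2 ratio of all probes on that array before normalization was -0.091. With median centring in place of loess, the LIG4 mean was 0.0030 with cisplatin, all arrays kept, and -0.11 with electroporation. LIG4 was then not the highest of the 8, as DDB2, which had no signal above background, had 0.072 and 0.16. On the second electroporation array the last LIG4 spot had an untreated intensity of 14 against 226 to 246 for its other 3 spots, and without it that array gave 0.067.

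The difference between the treatments compares arrays against arrays, and a constant dye preference of a probe falls out of it. None of the 8 genes passed the adjusted test, as for 0% of all probes, and 1 of 8, RPA3, had an unadjusted p under 0.05, against 3.51% of all probes and 2.23% lower. This count was 0 with the first cisplatin array left out and 1 with the second or the third left out. With either electroporation array left out, only 1 array remains in that group, and a count would rest on the spread of the cisplatin arrays. The RPA3 difference was then -0.35 without the first electroporation array and -0.28 without the second. The count was also 0 with plain subtraction, scaling between arrays, the mean foreground, trended robust variance and array weights. RPA3 was 0.32 lower on the log2 scale with electroporation than with cisplatin alone (log2 difference -0.32, 95% confidence interval -0.60 to -0.034, SE 0.114, limma adjusted p = 0.994), and -0.40 to -0.22 with 1 array left out. Groups did not overlap for 2 of the 8 genes, RPA3 and LIG3, in both of which the electroporation arrays were lower, against 18% of all probes without overlap 10.7% with the electroporation arrays lower and 7.32% with them higher. The LIG3 difference was -0.087 (95% confidence interval -0.23 to 0.059), between a treated channel that was mostly not above background in either group.

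For the remaining genes above background, differences ranged from 0.0048 to 0.093 and their intervals all included 0. XRCC6 differed by 0.093 (95% confidence interval -0.089 to 0.28) and PRKDC by 0.086 (-0.080 to 0.25). ERCC2 differed by 0.069 (-0.15 to 0.28). LIG4 differed by 0.0048, with an interval of -0.38 to 0.39, which leaves room for a difference in either direction. With 1 array left out, XRCC6 ran from 0.025 to 0.16, PRKDC from 0.0068 to 0.16 and ERCC2 from 0.0031 to 0.14, lowest for PRKDC without the first electroporation array and for XRCC6 and ERCC2 without the second. The confidence intervals bound what 5 arrays can show and do not show that the treatments act alike on these genes.

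**Figure D4:**
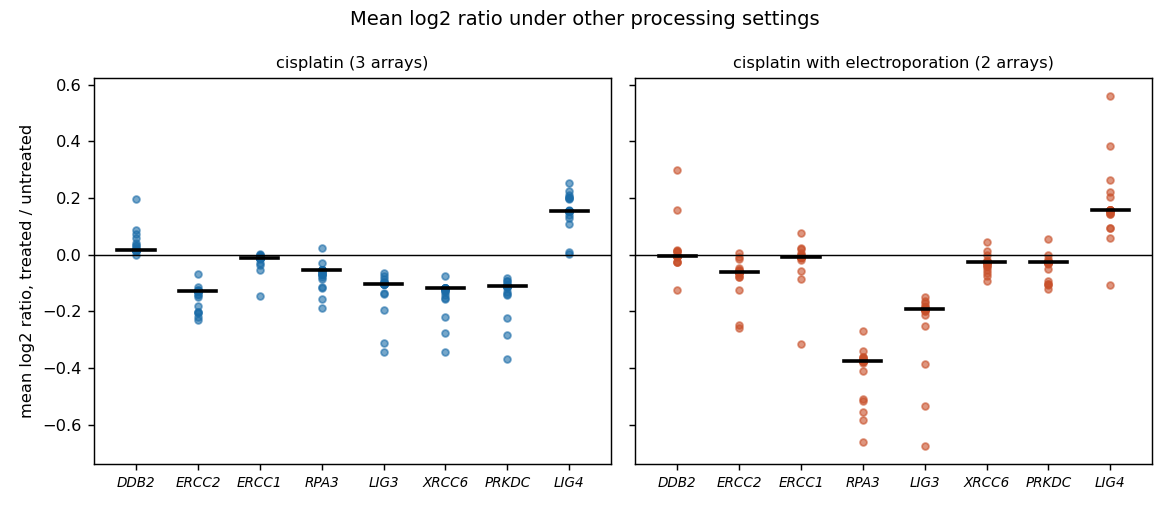
Mean log2 ratio of each gene under the alternative processing settings (points) and as reported (black line), for cisplatin on the left and cisplatin with electroporation on the right. RPA3 with electroporation stays between -0.66 and -0.27, and LIG4 with electroporation runs from -0.11 to 0.56.

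Other repair genes on the array give the setting for these values. Of 134 further genes listed for excision, end-joining, recombination, mismatch and bypass repair, damage signalling and repair synthesis, 46 were measured and 28 were above background on every array in at least 1 channel. None of the 46 passed the adjusted test in any of the 3 comparisons. With cisplatin, 2 were higher and 3 lower at an unadjusted limma p under 0.05, against 4.95% of all probes higher and 6.1% lower, and the median ratio was 0.013. With cisplatin and electroporation 1 was higher and 2 were lower, against 2.99% and 6.99%, with a median of 0.0066. In the difference between treatments 1 was higher and 1 lower, against 1.28% and 2.23%, with a median of -0.0079. These counts include genes whose probe was not above background on every array. They are CDK7, lower with cisplatin and higher in the difference, and RFC5, lower with electroporation.

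The 11 further nucleotide excision repair genes had a median of 0.013 with cisplatin, where 7 were above and 4 below 0, and of 0.039 with electroporation, with the same split. RAD23B, which stabilises the lesion sensor XPC, had the highest ratio of the further repair genes above background in both groups, 0.16 with cisplatin and 0.25 with electroporation (SE 0.089 and 0.109, limma adjusted p = 0.628 and 0.514). Its values were 0.36, 0.22 and -0.098 with cisplatin and 0.32 and 0.19 with electroporation, so it was below 0 on the third cisplatin array only, as LIG4 was. In base excision and single-strand break repair, 7 further genes were measured. TDG, a glycosylase that removes thymine and uracil from mismatches with guanine, was the lowest with electroporation, at -0.17 (SE 0.053, adjusted p = 0.413). Its electroporation values of -0.14 and -0.21 were below its cisplatin values of 0.11, -0.065 and -0.0039, and the difference was -0.19 (SE 0.069, adjusted p = 0.994). APEX1, the main abasic-site nuclease, had -0.038 and 0.32 on the electroporation arrays. NTHL1, a glycosylase for oxidised pyrimidines, had a cisplatin mean of -0.12 (SE 0.047, adjusted p = 0.437). MBD4, another mismatch glycosylase, differed by 0.11 between treatments.

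End joining had 2 further measured genes. TP53BP1 had -0.0080 with cisplatin and 0.086 with electroporation. DNTT, whose probe was not above background on every array, had -0.0016 and 0.048. RAD54B, a recombination ATPase, was the lowest of the further genes above background with cisplatin, at -0.17 (SE 0.057, limma adjusted p = 0.393), and had -0.10 with electroporation. RFC4, a clamp loader subunit, had a cisplatin mean of 0.10 (SE 0.037, adjusted p = 0.428), as did RPA2 at 0.10 (SE 0.038, adjusted p = 0.428). In damage signalling, RAD9A, a subunit of the checkpoint clamp, had -0.048, 0.033 and -0.33 with cisplatin and 0.12 and 0.21 with electroporation. The means were -0.12 and 0.16, a difference of 0.28 (SE 0.116, adjusted p = 0.994). The third cisplatin array decides the cisplatin mean, which was -0.0079 without it, and the difference was then 0.17. RAD17, which loads that clamp, had -0.11 with electroporation, and ATM, the kinase that responds to broken ends, differed by -0.096. UBE2B, a ubiquitin-conjugating enzyme of lesion bypass, differed by -0.14. RPA3, at -0.37, lay below all 46 further genes in the electroporation comparison. The lowest of these was RFC5 at -0.34, with -0.072 and -0.61 on the electroporation arrays and a probe not above background on every array. Among the further genes above background the lowest was TDG at -0.17.

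**Figure D5:**
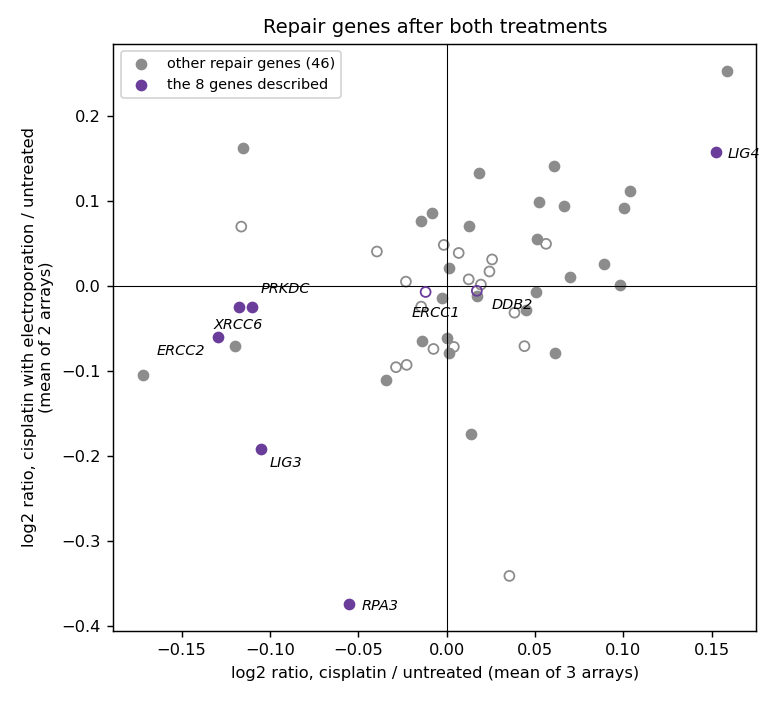
Mean log2 ratio with cisplatin (horizontal) against cisplatin with electroporation (vertical) for the 8 genes and 46 other repair genes, with open symbols for probes not above background on every array. RPA3 lies at -0.055 and -0.37, below the other genes, and LIG4 lies at 0.15 and 0.16.

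Patterns over the 5 arrays were compared with those of 1195 other named genes above background, as a description over few points that share labelling and untreated RNA. Closest to RPA3 were IGF2R (Pearson r 0.998) and EDNRB, an endothelin receptor of melanocytes (0.990). EDNRB ratios were 0.13, 0.029 and 0.43 with cisplatin and -0.15 and -0.33 with electroporation, so it also had its highest value on the third cisplatin array and its lowest on the second electroporation array. Closest to LIG4 were FCN1 (0.996) and KRT14 (0.990), both highest on the first cisplatin array, where KRT14 had 0.46. For ERCC2 they were SOD3 (0.998) and FOXJ1 (0.994), and for LIG3 ITGB1BP1 (0.997) and H3-3A (0.982). XRCC6 was closest to ZMYM2 (0.998) and FOLR3 (0.979), and PRKDC to CCL18 (0.988) and CCNG2 (0.943). With 5 points and this many genes, values near 1 occur for each of the 6 genes above background.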

How the data were processed

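Each deposited scanner file holds raw foreground and local background intensity per spot in both channels, per the file headers. The authors' deposited value table holds log2 ratios by a normalization not given in the sources used here, with unstated centring (column medians -0.028 to 0.023) and a correlation of 0.63 to 0.88 with the raw log2 ratio of channel 2 over channel 1. It served as an alternative. Channel 1 was read as Cy3 from the order of the labels.

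From the median foreground, background was corrected with limma 3.58.1 in R 4.3.3 (normexp, offset 50), ratios were normalized by loess (span 0.3) and the 4 spots of a probe were averaged. The offset draws dim ratios toward 0. Group means and their difference were tested two-sided in 1 limma model over 5 arrays (3 residual degrees of freedom, prior 2.47), with Benjamini-Hochberg adjustment over 3048 probes and a threshold of 0.05. The model was tested on simulated data. The number of arrays limits the precision.

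Members and lists were chosen with earlier results of these data known. Beside the 8 members, the rule named per comparison the 3 highest and 3 lowest other repair genes above background and, for each member above background, the 2 genes with the highest correlation. Probe symbols came from the platform annotation, with 2192 probes having 1 symbol and 856 none. Alternatives covered background, normalization, spots, filter, replicate block and arrays left out.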

Additional observations from a re-analysis of the deposited data

Results flagged for a closer look

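The untreated Cy3 intensity of LIG4 was 139.25 on the third cisplatin array and between 180 and 187 on the other 4 arrays. The gap from this lowest array to the nearest of the others was large for the range of the 5 values by Dixon's criterion. The value of the second electroporation array, 181.25, includes the dim last spot of 14 beside spots of 226 to 246. Without that spot the array would be the highest and the range wider, so the flag depends on it. The criterion was not recomputed without it. Of 8 genes looked at in this way 1 was picked out, and chance alone picks out about 1 in 20 independent genes. The 8 genes share their arrays and are not independent. The third cisplatin array also had the lowest untreated intensity of the 5 for ERCC2 (93.25), RPA3 (125), XRCC6 (41) and PRKDC (45.25). The same array had the lowest log2 ratio of LIG4 in the cisplatin group, -0.046.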

How the results depend on the processing

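Of the 869 values of single genes recomputed under up to 21 other settings, 822 kept their direction and side of the threshold, 2 passed it and 45 changed sign. Over all probes, the count past the adjusted threshold was 0 in each comparison and 4 for cisplatin without background correction, 1 with the authors' values and 129 with single spots and the array as a random block. Spots of 1 array are not replicates. The fitted correlation of spots within an array was 0.093, so the single-spot setting treats them almost as replicates and its p-values are too small. For cisplatin with electroporation the count was 10 without background correction, 35 with median centring, 1 with scaling between arrays, 11 over probes above background, 8 with the authors' values and 92 with single spots, which also called 2 of the 8 genes (RPA3, adjusted p = 0.00170, and LIG3, adjusted p = 0.0363). Leaving out 1 array gave 0 to 93, with 93 without the first electroporation array and 1 without the third cisplatin array. For the difference it was 2 with single spots and 0 to 47 with 1 array left out, 47 without the first electroporation array. A lone remaining array is assumed to vary like the other group. RPA3 with electroporation was below 0 in 21 of 21 settings (-0.66 to -0.27), and LIG3 in 20 of 20 (-0.68 to -0.15). The limma adjusted p of RPA3 was 0.00170 with single spots and 0.0727 to 0.663 otherwise. Settings that change only the probe filter, the variance model or the cisplatin arrays keep these means by construction, so their sign could not change. All settings use the same arrays. The cause of the shifts between settings was not tested.

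Sign changes with cisplatin were ERCC1 0.0034 with median centring, and, with 1 array left out, DDB2 (-0.00057 to 0.029) and RPA3 (-0.16 to 0.023). With electroporation, median centring gave ERCC1 0.076, DDB2 0.16, LIG4 -0.11, APEX1 -0.17, RAD9A -0.084 and RPA2 -0.023. Plain subtraction gave DDB2 0.30 and RAD17 0.19, and normexp without offset gave RAD17 0.036 and RAD54B 0.10. ERCC1 was 0.023 with the first 3 spots and 0.019 without last spots on the second array, and DDB2 was 0.012 with the median of spots and 0.0088 with the mean foreground. With 1 electroporation array left out, ERCC1 ran from -0.020 to 0.0059, ERCC2 from -0.13 to 0.0056, DDB2 from -0.028 to 0.016, XRCC6 from -0.092 to 0.043, PRKDC from -0.10 to 0.054 and APEX1 from -0.038 to 0.32. In the difference, ERCC1 was -0.055 without background correction, -0.032 without offset and -0.17 with plain subtraction, where DDB2 was 0.10 and RAD23B -0.031. Median centring gave ERCC2 -0.026, DDB2 0.085 and LIG4 -0.11, and the authors' values gave ERCC2 -0.041. LIG4 was -0.11 with the first 3 spots, -0.0091 without last spots and -0.015 with the mean foreground. With 1 array left out, LIG4 ran from -0.095 to 0.15, ERCC1 from -0.0080 to 0.018 and RAD23B from -0.034 to 0.19.

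The replicate numbers are shared by the groups, with correlations of the deviations of 0.34 and 0.12 for the 2 pairs, which does not establish pairing. With the replicate block, 0 probes passed in any comparison, and DDB2 was 0.012 and XRCC6 0.013 with electroporation, and LIG4 -0.095 and RAD23B -0.034 in the difference. RPA3 was then -0.27 with electroporation. Each gene has 1 probe, so no setting with every probe of a gene could be run.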
